A study of Homo sapiens with 6 samples.

Results

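Claudins and occludin are membrane proteins of the tight junction, the seal between neighbouring epithelial cells. Of the 10 genes chosen by name (CLDN1, CLDN2, CLDN3, CLDN4, CLDN6, CLDN7, CLDN10, CLDN12, CLDN16 and OCLN), 7 had an array row annotated with that symbol alone and could be measured, out of 14232 genes tested in all. CLDN2 shared its row with RIPPLY1 and CLDN10 shared its row with DZIP1, so neither was tested by name. OCLN, the gene of occludin, was listed under no row of the platform annotation and was not analysed here. RNA came from Ishikawa H cells, an established line from a grade 1, highly differentiated endometrioid adenocarcinoma whose labels give a p53 mutation, G186T, in both groups. The 3 MTDH knockdown arrays held cells with a stable short hairpin RNA (shRNA) against MTDH (metadherin). The 3 MTDH control arrays held control cells, which the study describes as expressing a control shRNA. Puromycin-resistant single clones were expanded, so the p-values reflect only the spread among these arrays, which may stem from cultures of 1 clone per group, and differences between clones and effects of the hairpin cannot be told apart. From arrays of Hec50co, another endometrial cancer line, the study reported that genes of tight junctions were among those regulated by MTDH. For Ishikawa H cells the study reported some overlap with the genes that changed in Hec50co. The comparison here asks whether claudin transcripts differed in Ishikawa H cells when MTDH was depleted.

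A claudin crosses the membrane repeatedly and pairs through its extracellular loops with claudins of the adjacent cell, and the set of claudins in a junction decides whether it seals or lets ions through. Most claudins end in a motif that binds the scaffold proteins ZO-1, ZO-2 and ZO-3, which tie the junction to actin. CLDN1, CLDN3, CLDN4 and CLDN7 are widespread in glandular epithelium, endometrium included, and CLDN3 and CLDN4 are receptors for an enterotoxin of Clostridium perfringens. CLDN6 is a claudin of embryonic epithelia that reappears in some carcinomas. CLDN16 forms channels for divalent cations in the kidney.

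No measured claudin passed the test between the groups. At an adjusted p under 0.05 (limma, Benjamini-Hochberg adjustment over all genes), 0 of the 7 changed, where 85 genes, or 0.597% of all genes tested, did. At an unadjusted p under 0.05 there was 1 of 7, CLDN6, against 14.1% of all genes. In none of the 7 were the control and knockdown arrays free of overlap, whereas in 20.0% of all genes they did not overlap. The median log2 difference of the 7, knockdown minus control, was 0.08, and over all genes it was -0.08. Differences varied with brightness, with a median of 0.18 for genes with a mean log2 value above 6 and -0.12 for the others. CLDN1 (0.17), CLDN7 (0.08) and CLDN3 (0.08, with a mean of 6.00004), all above 6, did not exceed the median of such genes. Among the others, CLDN4 (0.05), CLDN12 (0.28) and CLDN16 (0.21) lay above -0.12 and CLDN6 below it. Without control replicate 3 the medians were 0.072 above 6 and -0.035 for the others. CLDN1 was then at -0.14, CLDN3 at 0.11 and CLDN7 at 0.082. Of the 7 claudins, 6 had a positive difference, between 0.05 and 0.28, and the exception was CLDN6 at -1.37. Under quantile normalization, and likewise under cyclic loess, 3 of the 7 were positive and 4 negative, so the shared sign was not stable.

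The upstream sequences shown are those of CLDN6, which had the widest difference, of the neighbouring genes CLDN3 and CLDN4, whose differences lay near 0, and of CLDN7, the measured member with E-boxes next to its start. They were taken from RefSeq on GRCh38.p14 and run 5′ to 3′ in the direction of the gene. The first 3 give the 250 bases before the annotated start, and CLDN7 the last 30 bases before the more downstream of its 2 annotated starts, bases that lie within the span of transcripts from the other start. Capitals mark GC boxes (GGGCGG, a motif of SP1) and E-boxes of the Snail type (CAGGTG), each on either strand.
CLDN6 (chr16:3018184-3018433, minus strand): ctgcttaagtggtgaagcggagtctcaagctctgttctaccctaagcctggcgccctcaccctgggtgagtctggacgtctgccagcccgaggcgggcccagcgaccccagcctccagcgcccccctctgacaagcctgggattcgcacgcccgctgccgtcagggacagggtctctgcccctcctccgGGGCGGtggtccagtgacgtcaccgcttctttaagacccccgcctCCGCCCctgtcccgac
CLDN3 (chr7:73770271-73770520, minus strand): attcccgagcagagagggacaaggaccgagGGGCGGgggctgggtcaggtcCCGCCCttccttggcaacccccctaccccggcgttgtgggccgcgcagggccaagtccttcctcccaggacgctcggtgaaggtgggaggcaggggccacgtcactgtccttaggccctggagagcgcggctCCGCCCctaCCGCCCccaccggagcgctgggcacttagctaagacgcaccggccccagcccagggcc
CLDN4 (chr7:73830746-73830995, plus strand): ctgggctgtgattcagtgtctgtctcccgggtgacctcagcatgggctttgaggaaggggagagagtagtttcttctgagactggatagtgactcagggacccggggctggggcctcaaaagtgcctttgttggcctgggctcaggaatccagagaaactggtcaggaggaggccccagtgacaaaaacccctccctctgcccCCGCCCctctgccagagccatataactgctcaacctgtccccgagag
CLDN7 (chr17:7262479-7262508, minus strand): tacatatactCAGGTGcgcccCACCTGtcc

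The CLDN3 window held 4 GC boxes and was 71.6% G or C, the CLDN6 window held 2 and was 68.0%, and the CLDN4 window held 1 and was 58.8%, with a median of 58.0% over all windows. GC boxes were present in 8 of the 15 windows of the 10 genes, and in 42.6% of 35116 windows of this length from all genes. The CLDN7 window held 4 E-boxes, starting 174, 135, 20 and 9 bases before the start. Of the 15 windows, 3 held such an E-box, all of CLDN7 or OCLN, against 17.5% of all windows. The grainyhead motif AACNGGTT was in none of the 15 windows and in 1.49% of all windows. The motifs do not overlap each other, and a match describes letters only.

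**Figure D1:**
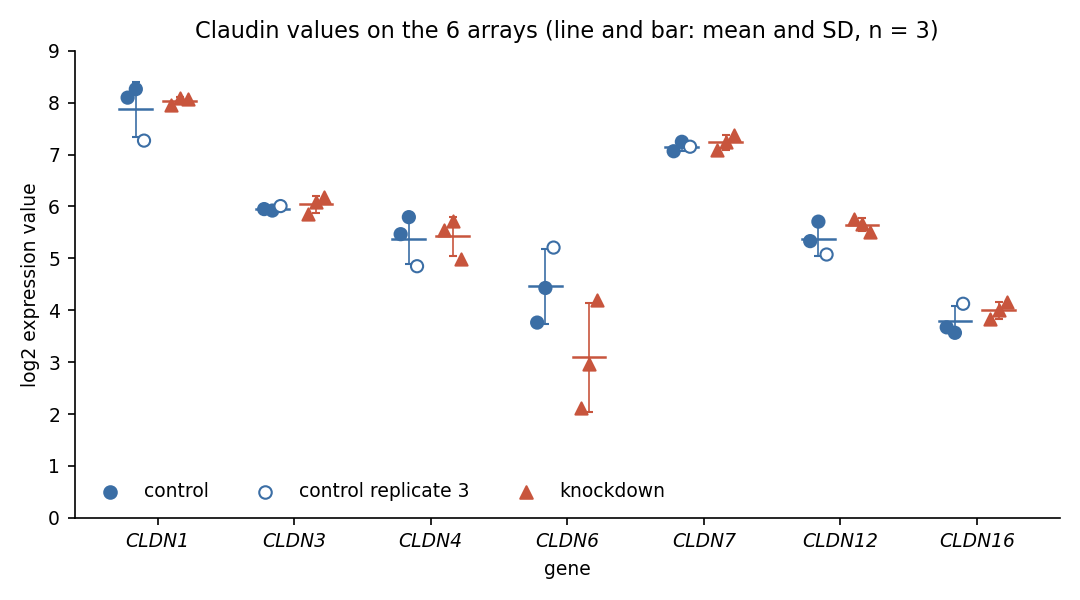
Log2 expression value (vertical axis) of the 7 measured claudins (horizontal axis) on each array, with circles for control, an open circle for control replicate 3, triangles for knockdown, and a line and bar for mean and SD (n = 3). The groups overlap in every gene, and CLDN6 has the widest scatter, from 2.12 to 5.21.

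CLDN1, a barrier-forming claudin needed for the epidermal barrier in mice, had log2 values of 8.10, 8.26 and 7.27 in control replicates 1, 2 and 3 and of 7.96, 8.08 and 8.08 in knockdown replicates 1, 2 and 3. The knockdown arrays lay close together and inside the range of the controls, where replicate 3 read low. The means were 7.88 ± 0.53 and 8.04 ± 0.07 (SD, n = 3), a log2 difference of 0.17 with a 95% confidence interval from -0.37 to 0.70 (limma adjusted p = 0.74). That interval leaves room for a level up to 1.29-fold lower or 1.63-fold higher. Without control replicate 3 the difference turned to -0.14 (adjusted p = 0.82).

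CLDN3 and CLDN4 are neighbours on chromosome 7, with no other measured gene between them. CLDN3 read 5.95, 5.92 and 6.01 in control cells, against 5.86, 6.09 and 6.17 in knockdown cells. Its spread was small, and the lowest value of all was a knockdown array. The log2 difference was 0.08 (95% confidence interval -0.27 to 0.44, limma adjusted p = 0.81). CLDN4 read 5.47, 5.79 and 4.85 in control cells, against 5.55, 5.72 and 4.99 in knockdown cells, so that each group held 1 low array. Its log2 difference was 0.05 (95% confidence interval -0.53 to 0.64, limma adjusted p = 0.93), and it was -0.21 without control replicate 3. The neighbours did not follow each other over the 6 arrays, with Pearson's r of -0.46 and Spearman's rho of -0.43, as a description of 6 points that share the array's own scale.

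CLDN7, a claudin found along the basolateral membrane as well as in the junction, gave 7.06, 7.25 and 7.15 in control cells, against 7.08, 7.25 and 7.38 in knockdown cells. The groups lay on top of each other. The log2 difference was 0.08 (95% confidence interval -0.27 to 0.44, limma adjusted p = 0.81). For CLDN3 and CLDN7, a change beyond 1.36-fold in either direction lay outside the interval in this fit, which made them the members with the narrowest bounds. The differences of CLDN3 and CLDN7 turned to -0.031 and -0.091 after quantile normalization, within those intervals.

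CLDN12, which lacks the usual scaffold-binding end, had log2 values of 5.33, 5.71 and 5.07 in control cells, against 5.76, 5.67 and 5.51 in knockdown cells. It showed the largest positive difference among the 7, 0.28 (95% confidence interval -0.15 to 0.70, limma adjusted p = 0.50), although 1 control array lay above 2 of the knockdown arrays. The difference was 0.13 without control replicate 3. CLDN16 read 3.67, 3.56 and 4.12 in control cells, against 3.83, 4.01 and 4.16 in knockdown cells. Here control replicate 3 read high, inside the knockdown range. The log2 difference was 0.21 (95% confidence interval -0.21 to 0.64, limma adjusted p = 0.59), and 0.38 without control replicate 3 (adjusted p = 0.44). CLDN16 was dim, with means of 3.79 and 4.0, where the 25th percentile of an array lay between 3.71 and 4.06. CLDN1 and CLDN16 are neighbours on chromosome 3, on opposite strands, and had an r of -0.56 and a rho of -0.71 over the 6 arrays.

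CLDN6 stood apart by the size of its difference and by its scatter. Its log2 values were 3.76, 4.43 and 5.21 in control replicates 1, 2 and 3 and 2.12, 2.96 and 4.21 in knockdown replicates 1, 2 and 3. Of the knockdown arrays, 2 lay below every control array, and the remaining one, replicate 3, lay above control replicate 1. The means were 4.47 ± 0.72 and 3.09 ± 1.05 (SD, n = 3), a log2 difference of -1.37 with a standard error of 0.48. CLDN6 was dim, with a knockdown mean below the 25th percentile of every array, so the size of the difference and its rank among genes are uncertain. The 95% confidence interval, which is not adjusted for the number of genes, ran from -2.43 to -0.32, and the adjusted p was 0.25 (limma, unadjusted p = 0.015). Only 30 of the 14232 genes had a larger absolute difference, and 24 of those 30 passed the test. The pooled SD within groups was 0.90 for CLDN6, larger than in 99.8% of genes, where the median over all genes was 0.23. In both groups the CLDN6 values rose from replicate 1 to replicate 3. Knockdown minus control for arrays of the same number was -1.64, -1.47 and -1.002 for replicates 1, 2 and 3, all negative. Whether arrays of the same number belong together is not known, and a cause of this order was not tested.

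Single arrays moved the CLDN6 difference without turning its sign. It was -0.88 without knockdown replicate 1 (adjusted p = 0.48) and -1.93 without knockdown replicate 3 (adjusted p = 0.11), and the adjusted p lay between 0.11 and 0.65 over the 6 fits that left out 1 array. Without control replicate 3 it was -1.002 (adjusted p = 0.52). The difference was -1.33 after quantile normalization and -1.24 after cyclic loess. With the replicate number as a block the limma adjusted p of CLDN6 was 0.0092, but whether same-numbered cultures were paired is not known. That fit is described in the closing section. The gene next to it on chromosome 16 is CLDN9, a close paralog, which read 4.12, 4.17 and 4.93 in control cells, against 4.01, 3.75 and 4.08 in knockdown cells. All 3 knockdown values of CLDN9 lay below all 3 control values, with a log2 difference of -0.46 (limma adjusted p = 0.39) that was -0.20 without control replicate 3. On the other side of CLDN6 lies TNFRSF12A, the receptor for the cytokine TWEAK, at -0.59 (adjusted p = 0.21). Because CLDN6 and CLDN9 are similar in sequence, their probes may share targets and the values are uncertain.

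**Figure D2:**
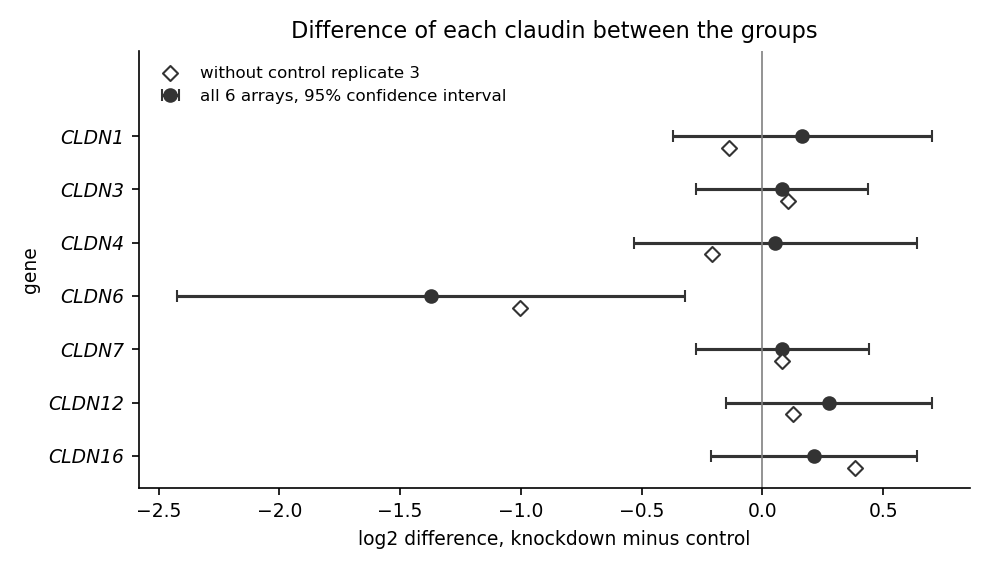
Log2 difference, knockdown minus control (horizontal axis), of each measured claudin (vertical axis), with filled points and bars for the fit on all 6 arrays and its 95% confidence interval, and open diamonds for the value without control replicate 3. The interval of CLDN6 runs from -2.43 to -0.32, the other 6 include 0, and the diamonds of CLDN1 and CLDN4 lie on the other side of 0.

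Control replicate 3 differed from the other arrays, with Pearson correlations across genes of 0.900 to 0.955, where pairs among the other 5 arrays lay at 0.959 or above. Against the mean of the other controls, the 2731 genes with a mean log2 value above 6 read lower on it, with a median of -0.35, and the 11501 other genes read higher, with a median of 0.22. CLDN1 was 0.91 lower on it, CLDN4 was 0.78 lower and CLDN12 was 0.45 lower, whereas CLDN6 was 1.11 higher and CLDN16 was 0.51 higher. CLDN7 and CLDN3 differed on it by less than 0.1 from the other controls. The part of this array in the 5 larger deviations was not tested. MTDH itself served as the check of the labels, with 6.89, 7.04 and 6.63 in control cells, against 5.77, 5.89 and 5.84 in knockdown cells, which did not overlap (limma adjusted p = 0.029).

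**Figure D3:**
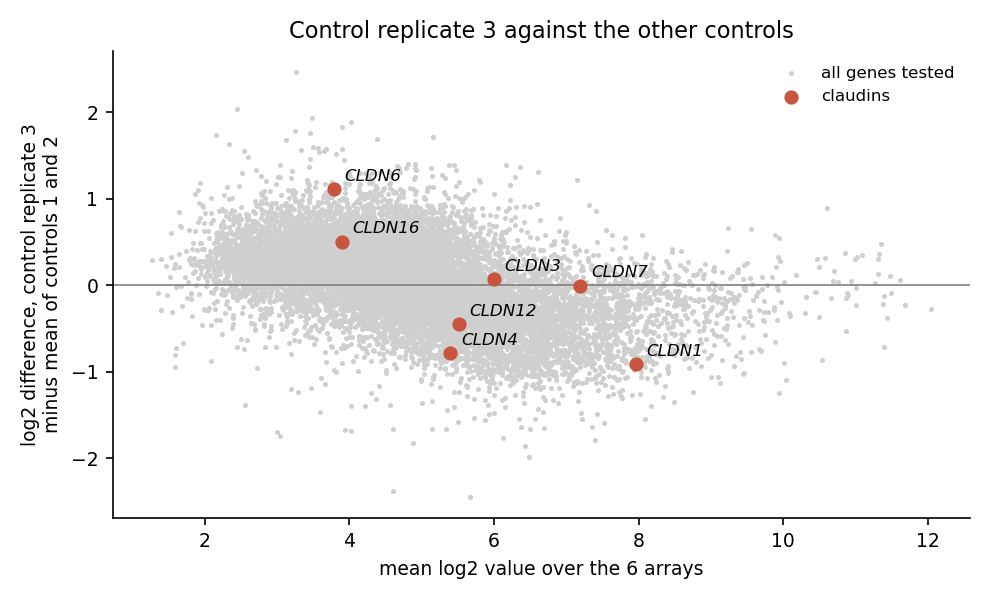
Log2 difference between control replicate 3 and the mean of control replicates 1 and 2 (vertical axis) against the mean log2 value over the 6 arrays (horizontal axis), with grey points for the 14232 genes and large points for the 7 claudins. CLDN6 lies at 1.11 and CLDN1 at -0.91, while CLDN3 and CLDN7 lie close to 0.

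The measured claudins did not move as 1 block from array to array. Among their 21 pairs, Pearson's r over the 6 arrays ran from -0.74, for CLDN4 and CLDN16, to 0.80, for CLDN3 and CLDN7. CLDN1, CLDN4 and CLDN12 were the members low on control replicate 3, and their pairs had r of 0.73 to 0.77. Spearman's rho was 0.71 for CLDN1 and CLDN4 and 0.77 for CLDN4 and CLDN12, but 0.26 for CLDN1 and CLDN12. The genes with a pattern most like CLDN6 among the other 14231 were SPATA18 (r = 0.998), HACD3 (r = 0.992) and HRK (r = 0.990). Their log2 differences were -0.14, -0.43 and -0.34. SPATA18 was dim and varied little, from 3.29 to 3.63, below the 25th percentile of every array. The genes most like CLDN12 were RSRC1 (r = 0.992), MIS18A (r = 0.990) and ETF1 (r = 0.990), at 0.45, 0.14 and 0.42. None of these 6 genes passed the test (lowest adjusted p = 0.39). These correlations describe 6 arrays only.

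Of 15 further claudin genes listed, 11 were measured and none passed in limma. At an unadjusted p under 0.05 there were 0 of 11 as well, against 14.1% of all genes. The log2 differences of these claudins were negative in 10 of 11, with a median of -0.20, where 60.7% of all genes were negative. All 11 had a mean log2 value below 6, and genes not above 6 had a median difference of -0.12. Without control replicate 3 the median was -0.14 for the 11 and -0.03 for genes not above 6. The groups did not overlap in 3 of them, all lower in the knockdown arrays, where this held for 11.2% of all genes. CLDN17 had the largest, at -0.52 (adjusted p = 0.43), followed by CLDN9. CLDN17 was dim, with a knockdown mean of 2.52, below the 25th percentile of every array. CLDN5, the claudin of endothelium, had -0.45 (adjusted p = 0.40). This order rested on control replicate 3, without which CLDN17 was at -0.19, CLDN9 at -0.20, CLDN5 at -0.25 and CLDN15 at -0.32.

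The other components of the junction were grouped by role. Among MARVEL and tricellular proteins, the relatives of occludin and the proteins at the contacts where several cells meet, 4 of 5 were measured, 0 passed, and the median was -0.06. LSR, the lipolysis-stimulated receptor of tricellular junctions, had -0.25 (-0.091 without control replicate 3), and MARVELD3 had -0.06. Of the junctional adhesion molecules 3 of 6 were measured, with a median of -0.09, and the values were -0.17 for ESAM and 0.15 for JAM2. For both lists the count at an unadjusted p under 0.05 was 0, against 14.1% of all genes. Of the plaque scaffolds and adaptors 10 of 16 were measured and 0 passed in limma. At an unadjusted p under 0.05 there was 1 of 10, against 14.1% of all genes. Of their differences 5 were positive and 5 negative, with a median of -0.05. TJP1, which encodes ZO-1, had -0.12 (adjusted p = 0.71). The largest values were 0.58 for the scaffold gene MPDZ (adjusted p = 0.21) and 0.45 for PATJ (adjusted p = 0.36), which encode related proteins with many PDZ domains. Both had higher values on each knockdown array than on each control array, as in 8.81% of all genes, with MPDZ at 5.12, 5.11 and 4.69 in control cells, against 5.60, 5.59 and 5.48 in knockdown cells. AMOT (-0.34) and SYMPK (-0.24) were lower on every knockdown array than on every control array, which held for 11.2% of all genes. Without control replicate 3 the difference was 0.44 for MPDZ and 0.24 for PATJ.

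Of the Par and Crumbs polarity complexes, which place the junction at the apical side, 11 of 12 were measured and 0 passed. Their median was -0.04, and 1 of 11 had an unadjusted p under 0.05 in limma, against 14.1% of all genes. CDC42, a small GTPase, had 0.60 (adjusted p = 0.25), and PALS1 had 0.37 (adjusted p = 0.44), which was 0.23 without control replicate 3. Transcription factors that act on claudin or occludin genes were measured for 18 of 21, and 0 passed. At an unadjusted p under 0.05 there were 4 of 18, against 14.1% of all genes. The difference was negative in 15, where 60.7% of all genes were negative. The median was -0.17, which was -0.04 without control replicate 3. KLF5, a Krüppel-like factor of epithelia, came nearest at -0.84 (adjusted p = 0.065), from 6.58, 6.51 and 6.65 in control cells to 5.75, 5.53 and 5.94 in knockdown cells, without overlap. SNAI1, a repressor that binds E-boxes of this type, had -0.51 (adjusted p = 0.22). It was dim, with a knockdown mean of 3.48, below the 25th percentile of every array. CLDN7, with 4 such E-boxes upstream, had 0.08, and a link between SNAI1 and CLDN7 was not tested. GRHL2, a grainyhead factor of epithelial junction genes, had 0.26 (adjusted p = 0.63) and 0.025 without control replicate 3.

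In the adherens junction, the cadherin-based contact below the tight junction, 10 of 11 genes were measured and CDH2 (N-cadherin) fell. It was the 1 of 10 to pass, against 0.597% of all genes. At an unadjusted p under 0.05 in limma there were 3 of 10, against 14.1% of all genes. The groups did not overlap in 2 genes that were higher and 4 that were lower, against 8.81% and 11.2% of all genes. The log2 values of CDH2 were 6.04, 5.92 and 5.54 in control cells, against 4.07, 4.27 and 3.77 in knockdown cells (log2 difference -1.80, limma adjusted p = 0.0039). JUP, also lower on every knockdown array than on every control array, had -0.52 (adjusted p = 0.21). CDH1, which encodes E-cadherin, had 0.28 (adjusted p = 0.43), and NECTIN3, an adhesion molecule, had 0.74 (adjusted p = 0.24), which was 0.46 without control replicate 3.

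**Figure D4:**
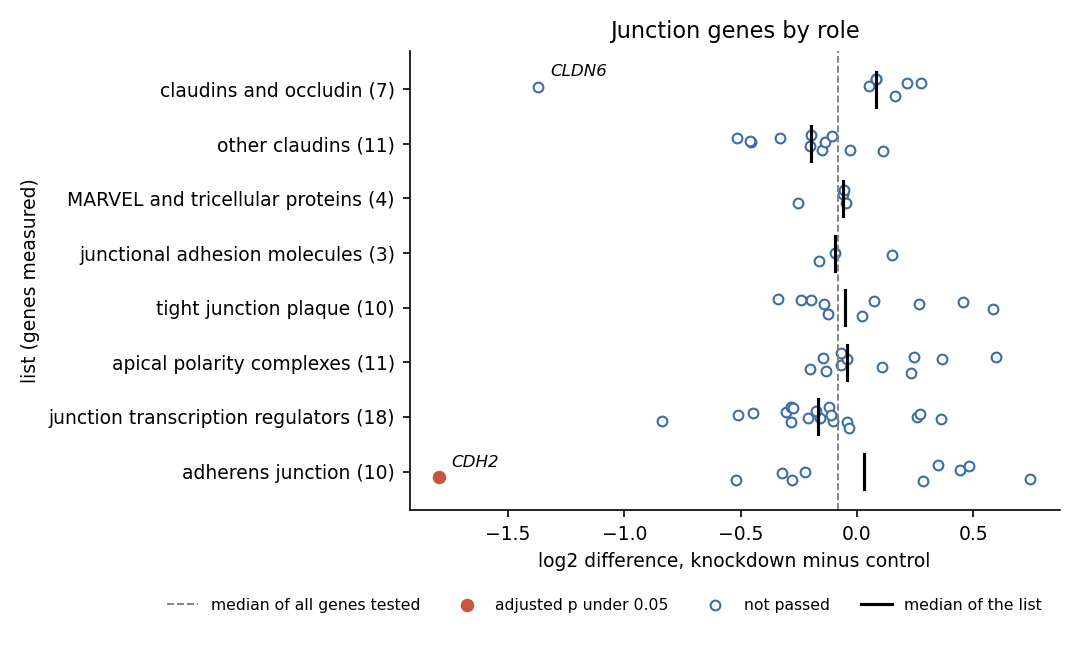
Log2 difference, knockdown minus control (horizontal axis), of each measured gene in 8 junction lists (vertical axis, number of genes measured in parentheses), with filled points for an adjusted p under 0.05, a bar for the median of the list and a dashed line for the median of all genes tested, -0.08. CDH2 is the single filled point at -1.80, and CLDN6 lies at -1.37 as an open point.

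The labelled cell type was checked against its markers. All 9 epithelial markers were measured, and their mean log2 value lay between 6.54 and 6.70 on the control arrays and between 6.42 and 6.65 on the knockdown arrays. EPCAM and KRT8 read from 6.89 to 7.74 and from 7.99 to 8.83. The lowest of the 9 were KRT7, from 3.90 to 4.53, and MUC1, from 4.85 to 5.56. Of the 9, 0 passed, and 3 had an unadjusted p under 0.05 in limma, against 14.1% of all genes. The groups did not overlap in 2 that were higher and 2 that were lower, against 8.81% and 11.2% of all genes. KRT19, a simple keratin, had the largest difference of the list at -0.87 (limma adjusted p = 0.084). ESRP1, an epithelial splicing regulator, had 0.75 (adjusted p = 0.25), which was 0.47 without control replicate 3. KRT8, lower on every knockdown array than on every control array, had -0.55 (adjusted p = 0.22). The mean over 5 of 6 blood cell markers lay between 3.53 and 4.20 on the 6 arrays, over 6 of 6 endothelial markers between 3.41 and 4.11, and over 7 of 8 markers of fibroblasts and smooth muscle between 3.68 and 4.08. The brightest gene of each list read higher than its mean: CD68 from 5.29 to 6.16, CLDN5 from 4.53 to 5.69 and COL1A1 from 4.74 to 5.57. For each of these 3 lists the highest array was control replicate 3, and 0 of their genes passed the test, nor did any at an unadjusted p under 0.05. The hormone receptor genes ESR1 and PGR read at most 3.72 and 3.18.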

How the data were processed

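Total RNA of 6 cultures was amplified, biotin-labelled and hybridised to whole-transcript arrays (Affymetrix). The authors deposited log2 expression values, made with Partek per the labels. For its version, background correction, normalization between arrays and genome build, the sources used here give nothing. The row identifiers match an exon array, whereas the methods name a gene array. Of 22011 rows, 14432 carried 1 symbol, 2408 several, and 5171 were unnamed. Per gene the row with the highest mean was kept, giving 14232 genes, 14205 of them placed by RefSeq (GRCh38.p14), used for chromosomes, neighbours and promoter windows only. Each measured claudin had 1 row.

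Groups came from the sample titles. The fit used limma (version 3.58.1, R version 4.3.3) with a mean per group, moderated variances (empirical Bayes) and p-values adjusted over all genes by Benjamini-Hochberg, at a threshold of 0.05. The methods state no test. Confidence intervals are unadjusted. With 3 against 3 arrays, an exact permutation test cannot go below 0.1, so none was used. Precision is limited by the number of arrays. In data simulated for this comparison over 14232 genes, 26 of 50 genes with a log2 change of -1, 29 of 50 with 1 and 1 of 50 with 0.5 were recovered. The simulated noise was independent for each gene, without shifts across an array such as those of control replicate 3. These rates need not hold for a gene with a spread like that of CLDN6.

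Genes named were MTDH, the members, passing genes of each list, the 2 largest differences per list, nearest neighbours, CDH1, EPCAM and KRT8 as checks of the cell type, and the 3 most similar patterns for the members with the largest positive and negative difference. CLDN5, TJP1, GRHL2, ESR1 and PGR were named for their role. CLDN15, AMOT, SYMPK, JUP, KRT7, MUC1, CD68 and COL1A1 were named after their values were seen. Members and lists were chosen with earlier results of these data known. Alternatives are given in the closing section.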

Additional observations from a re-analysis of the deposited data

How the results depend on the processing

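The count of 0 changed claudins held in 13 of 14 alternatives. The exception was the replicate number as a block: 1 claudin, CLDN6, then passed (adjusted p = 0.0092), and 364 genes changed in place of 85. Deviations of same-numbered arrays had correlations of -0.10, 0.47 and 0.31 over genes, which cannot decide whether the samples were paired. The labels do not say, so the unpaired fit was kept as the main one. The call of CLDN6 depends on that choice. In 2 of the 3 numbers each knockdown array correlated best with its own number, and not in the remaining one.

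Counts of changed genes were 19 with all rows of the table and 41 after centring on the median, and ran from 12 without control replicate 1 to 233 without control replicate 2. Dropping knockdown replicate 1, 2 or 3 left 20, 22 or 20. After quantile normalization 35 genes were higher and 34 lower, against 53 and 32 as deposited. No claudin passed in any fit that left out 1 array.

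The median of the claudins, 0.08, was -0.025 after quantile normalization and -0.016 after cyclic loess. Signs turned in quantile normalization for CLDN1 (-0.025), CLDN3 (-0.031) and CLDN7 (-0.091), and in cyclic loess for CLDN1 (-0.026), CLDN3 (-0.016) and CLDN7 (-0.11). With 1 array left out, CLDN1 ran from -0.14 to 0.36 and CLDN4 from -0.21 to 0.27, negative without control replicate 3, and for CLDN4 also without knockdown replicate 1 (-0.011) and knockdown replicate 2 (-0.097). CLDN6, CLDN12 and CLDN16 kept their sign in every alternative that measured them. Leaving out the 30% dimmest genes removed CLDN6 and CLDN16. KLF5 passed in 2 alternatives, this filter and the block. The causes were not tested.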

Other observations

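Rows annotated with several symbols were kept out of the tests by name. The row shared by CLDN10 and DZIP1 read 2.71, 2.55 and 3.26 in control cells, against 2.54, 2.32 and 2.35 in knockdown cells, without overlap, with a log2 difference of -0.44 in a fit of all rows (limma adjusted p = 0.47). The row shared by CLDN2 and RIPPLY1 had a log2 difference of -0.0028, with arrays between 3.30 and 3.75. A second CLDN12 row, shared with GTPBP10, had 0.56 (adjusted p = 0.47), and a second CLDN7 row, shared with ELP5, had -0.02 (adjusted p = 0.95). None of these values can be assigned to either gene.

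Of the measured genes on either side of the 7 claudins, 14 in all and 5 of them claudins with a value above, 0 passed in limma, with log2 differences from -0.59 to 0.21 and a lowest adjusted p of 0.21.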
